A study of Mus musculus with 12 samples.

Results

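Circular RNAs of centrosome, cilium and microtubule motor genes were examined in fibrotic mouse liver. Members were taken as every back-splice junction of the deposited table that lay inside a GENCODE M21 protein-coding gene named Cep, Ift, Bbs, Kif or Dync plus a number, with at least 1 end on an exon boundary of that gene. This gave 190 circles of the 16445 circular RNAs listed: 84 from Cep genes, 72 from Kif genes, 12 from Bbs genes, 11 from Ift genes and 11 from Dync genes. They came from 50 of the 104 genes with such names, and both ends lay on exon boundaries in 188 of them. The other 2, both in Cep112, had 1 end on a boundary. The rule used gene names and positions and no measured value, though the members were chosen with earlier results of these data known.

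The livers came from 12 mice of a strain labelled C57BL/8, 6 in each group, and each library was 1 mouse. PZH mice received injections of carbon tetrachloride (CCl4), a toxin that scars the liver, and were dosed daily in weeks 2 to 8 with 25 mg/ml of Pien Tze Huang (PZH), which is used in traditional Chinese medicine. Control mice received CCl4 alone. Both groups had 10 µl of 10% CCl4 for every 10 g of body weight, 2 times a week for 8 weeks, so livers without CCl4 were not analysed here and the comparison is of PZH within an injured liver. Sex, age and the way PZH was given are not stated in the labels.

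A circular RNA is made when the splice donor at the end of an exon joins an acceptor at or before that exon, and it is counted from reads that cross this junction. Centrosomal (Cep) proteins build centrioles and the material around them, and a centriole that docks at the membrane grows a cilium. Intraflagellar transport (Ift) proteins and the Bardet-Biedl (Bbs) complex carry cargo along the cilium. Most kinesins (Kif) and cytoplasmic dynein (Dync) walk along microtubules in opposite directions. In the liver, bile duct cells carry a primary cilium and hepatocytes generally do not, and dividing cells use the same genes to duplicate centrosomes and move chromosomes.

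Values are a signal in SRPBM, the authors' unit of junction reads scaled to the reads of a library. The libraries held 31472 to 41080 summed SRPBM in PZH and 28922 to 40927 in Control. Dividing each value by the step between low values of its library gives read-pair equivalents. PZH libraries had 92559 to 129699 of them and Control libraries 80442 to 130487. The 190 circles took 641 to 1102 in PZH libraries and 606 to 1261 in Control libraries. Log2 values of circular RNAs above 0 in every library correlated between libraries with r of 0.826 to 0.887, across circles and not across independent samples. Circles of 11 of 12 hepatocyte marker genes were above 0, and their summed signal was 572 to 910 SRPBM in PZH and 596 to 1017 in Control.

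The leading circles of 2 related genes began at matching exons. Cep85l and Cep85 are paralogs that encode centrosomal proteins. The circle with the highest mean over the 12 libraries, 45.6 SRPBM, joined exon 10 of Cep85l back to exon 7 (chr10:53291764-53298205, GRCm38, minus strand, 477 bases of exon), and the leading circle of Cep85 joined exon 9 back to exon 8 (chr4:134148010-134148761, minus strand, 308 bases). The exons that open these circles, Cep85l exon 7 (chr10:53298053-53298205) and Cep85 exon 8 (chr4:134148609-134148761), are both coding, are both 153 bases long and align without a gap, with 106 identical bases (69.3%). This was the highest identity among the best-scoring exon pairs of the 2 genes. Both are printed from the GENCODE M21 transcripts, 5′ to 3′, with identical bases in capitals.
Cep85l exon 7: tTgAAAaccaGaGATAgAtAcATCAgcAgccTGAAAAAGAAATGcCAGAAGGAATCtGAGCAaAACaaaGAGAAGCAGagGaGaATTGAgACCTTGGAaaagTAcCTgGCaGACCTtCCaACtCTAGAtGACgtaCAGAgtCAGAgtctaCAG
Cep85 exon 8: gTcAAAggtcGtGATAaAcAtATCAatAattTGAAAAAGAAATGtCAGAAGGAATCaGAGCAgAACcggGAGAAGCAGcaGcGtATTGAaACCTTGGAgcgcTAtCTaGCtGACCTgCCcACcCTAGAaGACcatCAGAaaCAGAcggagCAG

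The donor sides of the 2 circles do not correspond: the circle of Cep85l runs to exon 10, and the Cep85l junction that would match the Cep85 circle, exon 8 to exon 7, was above 0 in 1 library. The back-splice junctions of the circles on which the results turn are printed below, because these joined sequences are what sequencing reads must cross. The last 30 bases of the donor exon are in lower case and the first 30 bases of the acceptor exon in capitals. All come from coding exons of GENCODE M21 transcripts.
Cep85l exons 7-10: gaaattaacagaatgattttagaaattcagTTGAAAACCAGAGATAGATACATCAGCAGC
Cep85 exons 8-9: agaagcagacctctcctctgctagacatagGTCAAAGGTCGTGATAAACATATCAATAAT
Kif16b exons 16-17: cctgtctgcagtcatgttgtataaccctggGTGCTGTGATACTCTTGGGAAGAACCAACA
Dync1h1 exons 49-51: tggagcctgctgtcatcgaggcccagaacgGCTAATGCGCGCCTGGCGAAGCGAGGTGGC
Kif1b exons 27-29: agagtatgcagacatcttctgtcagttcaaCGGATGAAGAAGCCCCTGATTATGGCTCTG
Cep350 exons 18-21: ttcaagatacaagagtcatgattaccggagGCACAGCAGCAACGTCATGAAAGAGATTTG

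The summed signal of these circles differed between PZH and Control livers by less than 1 SD of either group. It was 286 ± 57.2 SRPBM in PZH and 301 ± 58.4 SRPBM in Control (SD, n = 6 each), which was 0.784% ± 0.0876 of all back-splice signal in PZH and 0.852% ± 0.0742 in Control. The number of circles above 0 was 53.3 ± 9.52 per library in PZH and 54.8 ± 11.7 in Control. Sums and counts overlapped between the groups throughout. In bulk liver, fewer cells of a type and less RNA per cell cannot be told apart.

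By family, Cep circles summed to 142 ± 35.6 SRPBM in PZH and 155 ± 34.6 in Control. Kif circles summed to 69.0 ± 20.8 SRPBM in PZH and 68.9 ± 16.9 in Control, and Bbs circles to 59.6 ± 10.9 in PZH and 55.3 ± 10.4 in Control. These 3 sums thus differed by less than 1 SD of either group. Dync circles summed to 11.9 ± 2.70 SRPBM in PZH and 19.6 ± 6.80 in Control, with ranges of 8.92 to 15.9 in PZH and 10.8 to 30.5 in Control, so 1 Control library lay inside the PZH range. Ift circles were the scarcest, at 2.16 to 6.01 SRPBM in PZH and 0 to 6.89 in Control. No test was made of these sums, since the members were chosen with earlier results known.

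**Figure D1:**
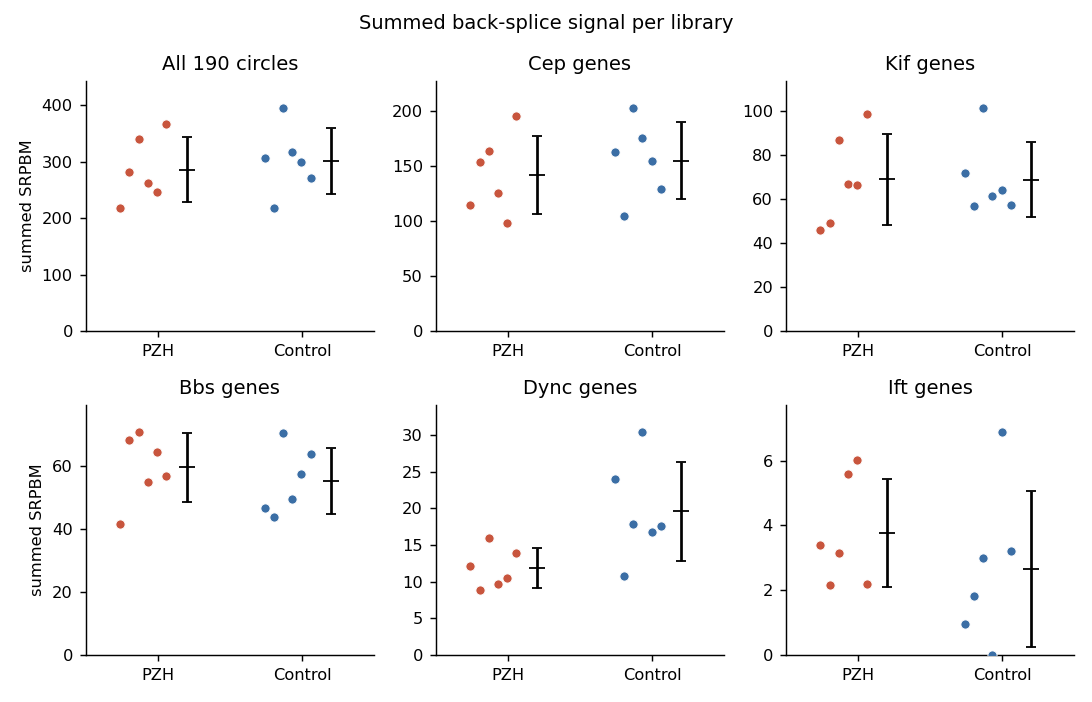
Summed SRPBM (vertical axes) of all 190 circles and of each gene name family, 1 point per library, PZH left of Control, with bars for mean and SD (n = 6 each). The groups overlap in every panel; the Dync sums lie between 8.92 and 15.9 in PZH and between 10.8 and 30.5 in Control.

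The limma fit, run on log2 of SRPBM plus a pseudocount over all circular RNAs above 0 in at least 6 of the 12 libraries, could test 43 of the 190 circles (22.6%). The other 147 were above 0 in fewer libraries. None of the 43 passed an adjusted p of 0.05 (Benjamini-Hochberg over all 3870 tested), and 0.0517% of all tested circular RNAs did. Adjusted p-values of the 43 ran from 0.485 to 0.998. At an unadjusted p under 0.05, 1 circle was higher in PZH, a Cep350 circle, where 4.55% of all tested circular RNAs were. Likewise 1 was lower in PZH, a Cep85 circle, where 3% of all tested circular RNAs were.

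No circle had groups that did not overlap, which 0.672% of all tested circular RNAs had. Log2 fold changes of PZH over Control were positive in 18 and negative in 25 circles, with a median of −0.17, against a median of 0.06 with 2100 positive and 1770 negative over all tested. They ran from −1.07 to 1.19, with a median SE of 0.67. By family, 5 Cep circles were positive and 10 negative (median −0.27), 10 Kif circles positive and 9 negative (median 0.01), and 2 Bbs circles positive and 2 negative (median 0.01). All 4 tested Dync circles were negative (median −0.68), and the 1 tested Ift circle was positive at 0.17. Circles that share a host come from the same gene and can share exons, so these are counts of junctions and not of independent genes.

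**Figure D2:**
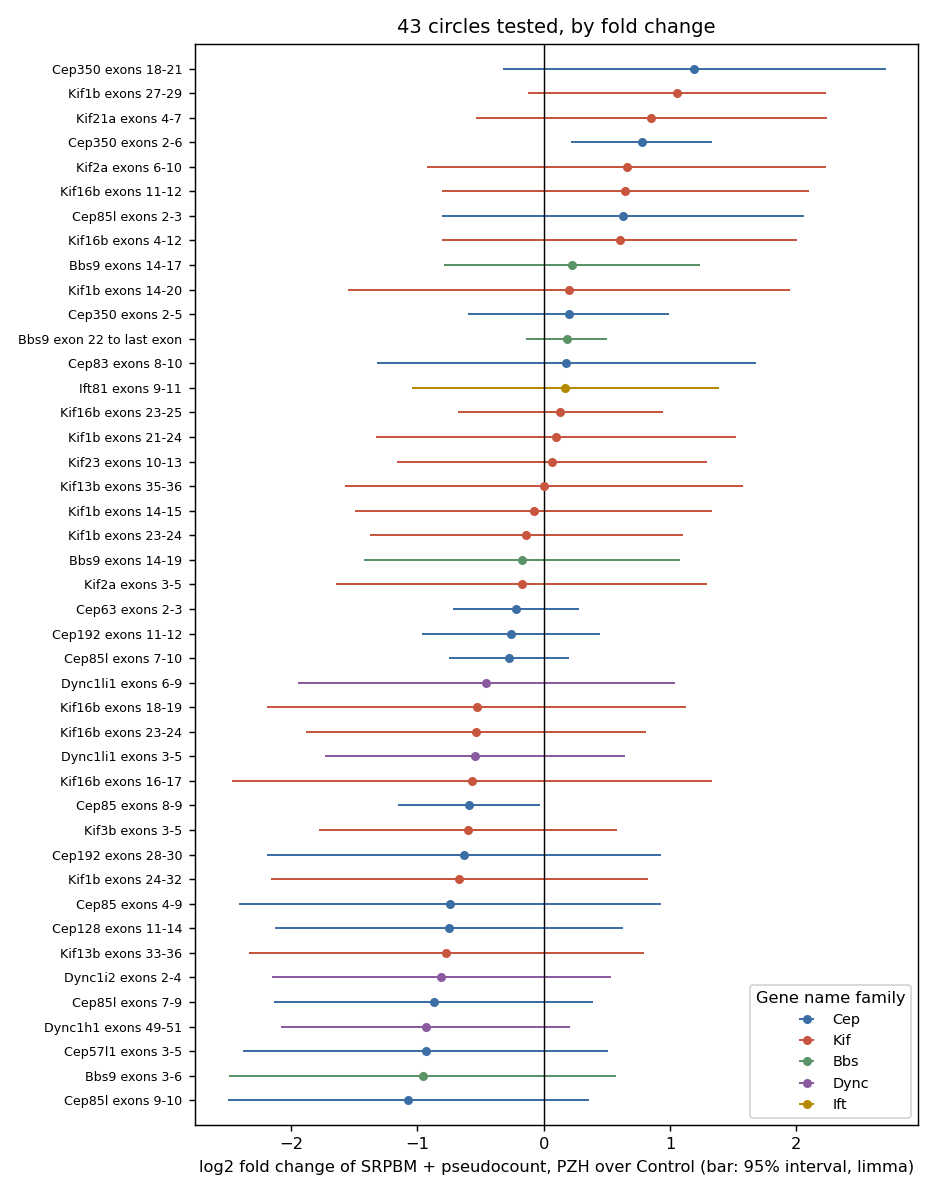
Log2 fold change of SRPBM plus pseudocount, PZH over Control (horizontal axis), for each of the 43 tested circles, with 95% limma intervals and colours for the gene name family. The intervals of 2 circles, Cep350 exons 2-6 and Cep85 exons 8-9, leave out 0, and both adjusted p-values are above 0.05.

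Among the centrosomal circles, that of Cep85l exons 7-10 had the highest mean. Over all 190 it ranked first in Control and behind a Bbs9 circle in PZH. PZH libraries 1 to 6 had 39.6, 53.2, 40.5, 29.2, 23.7 and 63.7 SRPBM, and Control libraries 1 to 6 had 66.1, 31.3, 66.1, 52.6, 44.7 and 37.2 SRPBM. Highest and lowest values of the groups interleaved. The means were 41.6 ± 14.9 SRPBM in PZH and 49.7 ± 14.6 in Control, with a log2 fold change of −0.27 (SE 0.23, limma adjusted p = 0.801). At a mean of 142 read-pair equivalents over the 12 libraries it was the most deeply covered of the 190.

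For Cep85 exons 8-9, PZH libraries 1 to 6 had 13.7, 14.97, 14.5, 11.4, 5.90 and 12.8 SRPBM. Control libraries 1 to 6 had 12.99, 14.7, 21.3, 22.3, 28.3 and 12.998 SRPBM. The 3 highest Control libraries lay above every PZH library, and the other 3 lay inside the PZH range. The means were 12.2 ± 3.34 SRPBM in PZH and 18.8 ± 6.20 in Control, with a log2 fold change of −0.59 (SE 0.27, unadjusted p = 0.0396, limma adjusted p = 0.620). Thus the difference did not hold once all tested circular RNAs were taken into account.

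Cep350 encodes a large protein of the centrosome that anchors microtubules, and it gave 8 circles. Its leading circle ran from exon 2 to exon 6 (chr1:155953154-155962560, minus strand, 1016 bases of exon) and spans the start codon. PZH libraries 1 to 6 had 13.4, 18.5, 20.04, 14.8, 16.5 and 29.2 SRPBM, and Control libraries 1 to 6 had 9.02, 5.74, 15.01, 10.2, 9.46 and 15.99. All PZH libraries were above 4 of the 6 Control libraries, while the 2 highest Control libraries reached into the PZH range. The means were 18.7 ± 5.63 SRPBM in PZH and 10.9 ± 3.89 in Control, with a log2 fold change of 0.78 (SE 0.27, unadjusted p = 0.00899). This was the smallest p of the 43, with a limma adjusted p of 0.485.

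The same acceptor of Cep350 exon 2 was joined to exon 5 in a second circle (chr1:155958561-155962560, 402 bases of exon). Because this acceptor exon begins outside the coding sequence, only the coding ends of the donor exons are shown here, in lower case, to tell the 2 circles apart.
Cep350 exon 6 donor end: caacagcaccacctgctccagcatacaaag
Cep350 exon 5 donor end: ggagttccgtgaacctttggtttcttatag

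Cep350 exons 2-5 had a lowest, median and highest value of 3.38, 12.7 and 21.7 SRPBM in PZH and of 4.81, 9.02 and 15.3 SRPBM in Control. The groups overlapped over most of their range, with a log2 fold change of 0.20 (SE 0.38, limma adjusted p = 0.940). Another Cep350 circle, exons 18-21, was above 0 in 4 PZH libraries at 3.67 to 4.59 SRPBM and in 2 Control libraries at 2.24 and 2.33. It had the largest positive fold change of the tested circles, 1.19 on the log2 scale, with an SE of 0.73 and a limma adjusted p of 0.710. Cep350 exons 19-21, with the same donor, were above 0 in 1 PZH and 3 Control libraries. Cep350 exons 2-8, with the exon 2 acceptor, were above 0 in 0 PZH and 3 Control libraries.

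Whether Cep350 shifted between its junctions was asked with the log2 ratio of the exon 2-6 circle to its 7 other circles. It averaged 0.51 ± 0.83 in PZH and −0.31 ± 0.82 in Control, a difference of 0.82 (exact permutation test over all assignments of the libraries to 2 groups of 6, 2-sided p = 0.121, adjusted p = 0.242 over 2 genes). Since this circle also had the smallest p of the tested circles, the ratio is not separate evidence. All Cep350 circles summed to 33.6 ± 11.4 SRPBM in PZH and 24.8 ± 7.21 in Control (log2 fold change 0.41, SE 0.25, limma adjusted p = 0.684).

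Cep63, which helps to duplicate centrioles, gave almost all of its signal (97.3%) in 1 circle of exons 2-3, at 12.1 ± 2.85 SRPBM in PZH and 14.1 ± 2.82 in Control. Cep192, a scaffold on which the material around the centriole assembles, had 7.62 ± 2.95 SRPBM in PZH and 8.65 ± 1.73 in Control in its circle of exons 11-12. Both differences were within 1 SD of either group. Cep83, a protein of the appendages by which a centriole docks at the membrane, had a circle of exons 8-10 at 0 to 12.03 SRPBM in PZH and 0 to 13.4 in Control, with 1 library listed at 0 in each group. A 0 in this table is a value listed as 0, not proof that the circle is absent.

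The other Cep circles were above 0 in fewer than 12 libraries, and none of those tested passed the threshold. Cep85l exons 9-10, which share the donor of the leading Cep85l circle, were above 0 in 2 PZH and 5 Control libraries. They had the most negative fold change of the 43, −1.07 on the log2 scale (SE 0.69, limma adjusted p = 0.727). Values above 0 were 2.34 and 2.92 SRPBM in PZH and 1.06 to 5.75 in Control. With zeros treated as missing the fold change was positive. The neighbouring Cep85l exons 7-9 was above 0 in 2 PZH and 4 Control libraries (log2 fold change −0.87), whereas Cep85l exons 2-3 was above 0 in 5 libraries of each group (0.63). Cep57l1, a relative of the centrosomal gene Cep57, had its circle of exons 3-5 above 0 in 3 PZH and 4 Control libraries (log2 fold change −0.93). Values this low rest on few reads, and their intervals cover changes in either direction.

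**Figure D3:**
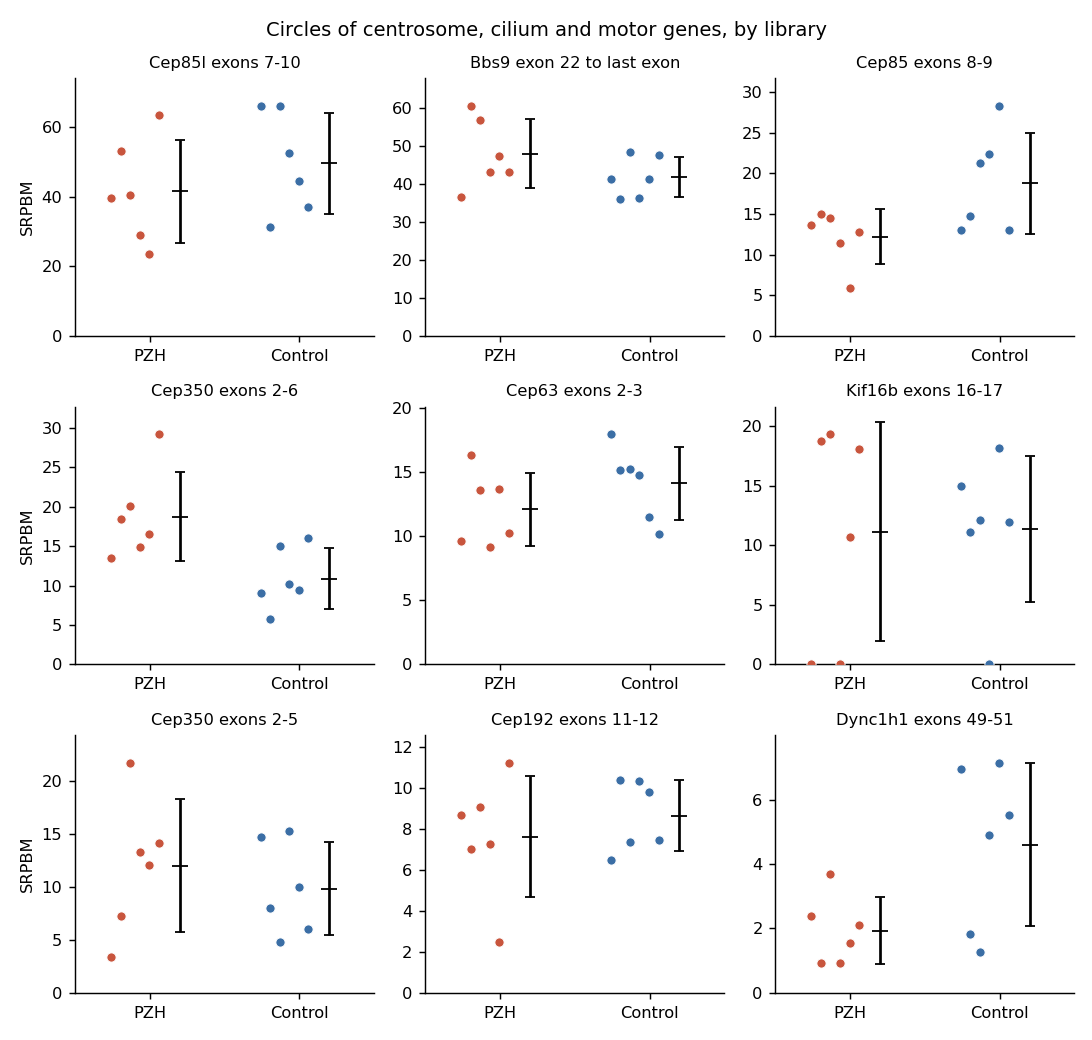
SRPBM (vertical axes, each from 0) of the 8 circles with the highest mean over the 12 libraries and of Dync1h1 exons 49-51, 1 point per library, PZH left of Control, with bars for mean and SD (n = 6 each). Cep350 exons 2-6 lie between 13.4 and 29.2 in PZH and between 5.74 and 15.99 in Control, and the groups overlap in every panel; Kif16b exons 16-17 is listed at 0 in 2 PZH libraries and 1 Control library.

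Among cilium genes, Bbs9, a subunit of the Bardet-Biedl complex, held the highest summed signal of the 50 hosts over the 12 libraries together, though Cep85l was higher in Control. Bbs9 circles summed to 59.4 ± 10.7 SRPBM in PZH and 54.9 ± 10.5 in Control. Of this signal, 78.5% came from 1 junction. It starts at exon 22 and ends inside the last exon of the 23-exon coding transcript (chr9:22887581-22887996, plus strand, 243 bases of exon around an intron of 173 bases). Its donor lies 135 bases into that exon and 106 bases past the last coding base at position 22887890. GENCODE M21 has this donor as an exon end only in a 6-exon transcript without a coding sequence, so the junction uses a splice site within the final exon of the main form. Its acceptor side, the first 30 coding bases of exon 22, is shown in capitals to identify the junction.
Bbs9 exon 22 acceptor side: GTGGCTGTACTCCAATCCCAGAGTCAGACC

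This Bbs9 circle had 36.5, 60.5, 56.8, 43.1, 47.4 and 43.2 SRPBM in PZH libraries 1 to 6 and 41.1, 36.1, 48.3, 36.4, 41.2 and 47.6 in Control libraries 1 to 6. The 2 highest PZH libraries exceeded every Control library, and the other 4 lay within the Control range. The means were 47.9 ± 9.08 SRPBM in PZH and 41.8 ± 5.29 in Control, with a log2 fold change of 0.18 (SE 0.15, limma adjusted p = 0.802). With a 95% interval of −0.14 to 0.50 on the log2 scale, it was the most narrowly measured of the 43.

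The log2 ratio of this junction to the 8 other Bbs9 circles was 2.17 ± 0.69 in PZH and 1.82 ± 0.69 in Control, a difference of 0.35 (exact permutation test, 2-sided p = 0.413, adjusted p = 0.413 over 2 genes). Of the other Bbs9 circles, exons 3-6, which span the start codon, were above 0 in 4 PZH and 5 Control libraries (log2 fold change −0.96, SE 0.74). Exons 14-17 and 14-19 share an acceptor and had log2 fold changes of 0.22 and −0.17. Bbs4, Bbs5 and Bbs7 gave 1 circle each, above 0 in 1 library.

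Circles of intraflagellar transport genes were few. Ift81, whose protein binds tubulin cargo, had the 1 tested circle, exons 9-11, above 0 in 4 libraries of each group at up to 2.20 SRPBM in PZH and up to 1.78 in Control (log2 fold change 0.17, SE 0.58, limma adjusted p = 0.970). Ift88, which cilia need to form, had 1 circle, above 0 in 2 PZH libraries and 1 Control library. Ift80 and Ift52 had 3 circles each, and Ift122, Ift140 and Ift74 had 1 each. None of these reached 6 libraries above 0, so none was tested in the main fit.

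Kinesin circles were spread over many junctions. Kif1b, a motor that carries mitochondria and vesicle precursors, gave 25 circles, more than any other host here, and its leading circle held 20.6% of its signal. Its summed signal was 17.2 ± 9.22 SRPBM in PZH and 19.5 ± 4.11 in Control (log2 fold change −0.34, limma adjusted p = 0.789). Its tested circles had fold changes of both signs: exons 27-29 were above 0 in 4 PZH and 2 Control libraries (log2 fold change 1.06, SE 0.57, limma adjusted p = 0.686), and exons 24-32 in 3 PZH and 4 Control libraries (−0.67, SE 0.72).

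Kif1b exons 32-34 (chr4:149202508-149206773) were listed at 0 in all 6 PZH libraries and above 0 in 5 Control libraries, at 1.02 to 4.71 SRPBM. It was the 1 circle of the 190 that was above 0 in at least 5 libraries of one group and at most 1 of the other. Of all 16445 circular RNAs, 45 had this pattern on the PZH side and 25 on the Control side. As it was above 0 in under 6 libraries, it was not tested in the main fit.

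Kif16b, a kinesin that moves early endosomes, gave 14 circles with a sum of 28.6 ± 11.7 SRPBM in PZH and 27.9 ± 10.3 in Control. Its leading circle, exons 16-17 (chr2:142739523-142740991, minus strand), is 172 bases long. PZH libraries 1 to 6 had 0, 18.8, 19.3, 0, 10.7 and 18.1 SRPBM, and Control libraries 1 to 6 had 14.97, 11.1, 12.1, 0, 18.1 and 11.99. Libraries were thus either above 10 SRPBM or listed at 0, in both groups, and the zeros decided the sign of the fold change (−0.57, SE 0.91, limma adjusted p = 0.919). With zeros treated as missing it was 0.27.

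A second Kif16b circle, exons 23-25, was above 0 throughout, at 8.24 ± 4.07 SRPBM in PZH and 7.65 ± 4.06 in Control. Exons 11-12 and 4-12, which share the donor of exon 12, were each above 0 in 4 PZH and 3 Control libraries, with log2 fold changes of 0.65 and 0.60. Neither passed the test, with limma adjusted p-values of 0.867 and 0.868.

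Kif3b, a subunit of the motor that carries cargo to the tip of the cilium, had 1 circle, exons 3-5, with a lowest, median and highest value of 0, 5.22 and 7.89 SRPBM in PZH and of 2.29, 7.91 and 11.04 in Control (log2 fold change −0.60, SE 0.57, limma adjusted p = 0.839). Its partner Kif3a had 1 circle above 0 in 1 Control library. Kif21a, a kinesin that restrains microtubule growth, summed to a lowest, median and highest of 1.04, 3.51 and 4.92 SRPBM in PZH and of 0, 1.00 and 4.40 in Control (log2 fold change 1.26, SE 0.67, limma adjusted p = 0.648). Kif23, which works in the last step of cell division, had 0, 2.93 and 5.92 SRPBM in PZH and 0, 0.334 and 2.95 in Control (1.32, SE 0.71, limma adjusted p = 0.648). Medians of both were higher in PZH, and the groups overlapped.

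All 4 tested dynein circles had negative fold changes, none past the threshold. Dync1h1 is the heavy chain of cytoplasmic dynein, and its 1 circle, exons 49-51 (chr12:110651491-110652194, plus strand), had 2.39, 0.916, 3.68, 0.939, 1.55 and 2.12 SRPBM in PZH libraries 1 to 6. Control libraries 1 to 6 had 6.96, 1.81, 1.26, 4.90, 7.14 and 5.51. Control libraries fell into 4 above every PZH library and 2 within the PZH range. The means were 1.93 ± 1.05 SRPBM in PZH and 4.60 ± 2.53 in Control (log2 fold change −0.93, SE 0.55, unadjusted p = 0.104, limma adjusted p = 0.708).

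Dync1li1, a light intermediate chain that links dynein to its cargo adaptors, summed to 7.60 ± 3.01 SRPBM in PZH and 12.8 ± 7.2003 in Control over 5 circles (log2 fold change −0.67, SE 0.42, limma adjusted p = 0.696). Its circles of exons 3-5 and 6-9 had log2 fold changes of −0.54 and −0.45. Dync1i2, an intermediate chain, had a circle of exons 2-4 above 0 in 2 PZH and 4 Control libraries (−0.81, SE 0.65, limma adjusted p = 0.789). Dync2h1, the heavy chain of the dynein that returns cargo from the tip of the cilium, had a positive fold change, 0.83 on the log2 scale (SE 0.61, limma adjusted p = 0.729), with its sum above 0 in 4 PZH and 2 Control libraries.

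Summed by host, 23 of the 50 genes could be tested and 0 passed an adjusted p of 0.05, as 0% of all 2204 tested hosts did. At an unadjusted p under 0.05 there were 0 higher and 0 lower, where 5.08% of all tested hosts were higher and 3.09% lower in PZH. Of the 23, 9 were positive and 14 negative, with a median log2 fold change of −0.11 and adjusted p-values from 0.620 to 1.000 (limma). Cep85 had the smallest, with sums of 16.2 ± 6.11 SRPBM in PZH and 24.4 ± 8.13 in Control (log2 fold change −0.61, SE 0.30, unadjusted p = 0.0557, limma adjusted p = 0.620). Cep85l summed to 47.4 ± 17.1 SRPBM in PZH and 58.6 ± 18.2 in Control, and Cep128, a protein of the centriole's subdistal appendages with 13 circles, had a log2 fold change of 0.05.

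Junctions of one gene often reused a splice site. Of the 188 circles with both ends on exon boundaries, 119 (63.3%) shared an end with another circle of the table, against 67.7% of other circles from protein-coding genes. The donor of Cep85 exon 9 served 5 circles, and the acceptor of Cep85l exon 7 served 4, which together averaged 47.4 SRPBM. The exon 12 donor of Kif16b served 4, and the exon 2 acceptors of Cep350 and Cep63 served 3 each. Signal was concentrated within hosts: the leading circle held 86.1% of the Cep85l signal and 76.2% of the Cep85 signal, but 50.7% for Cep350 and 39.8% for Kif16b. The 5 hosts Bbs9, Cep85l, Cep350, Kif16b and Cep85 carried 64.0% of the summed signal of all 190 circles.

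**Figure D4:**
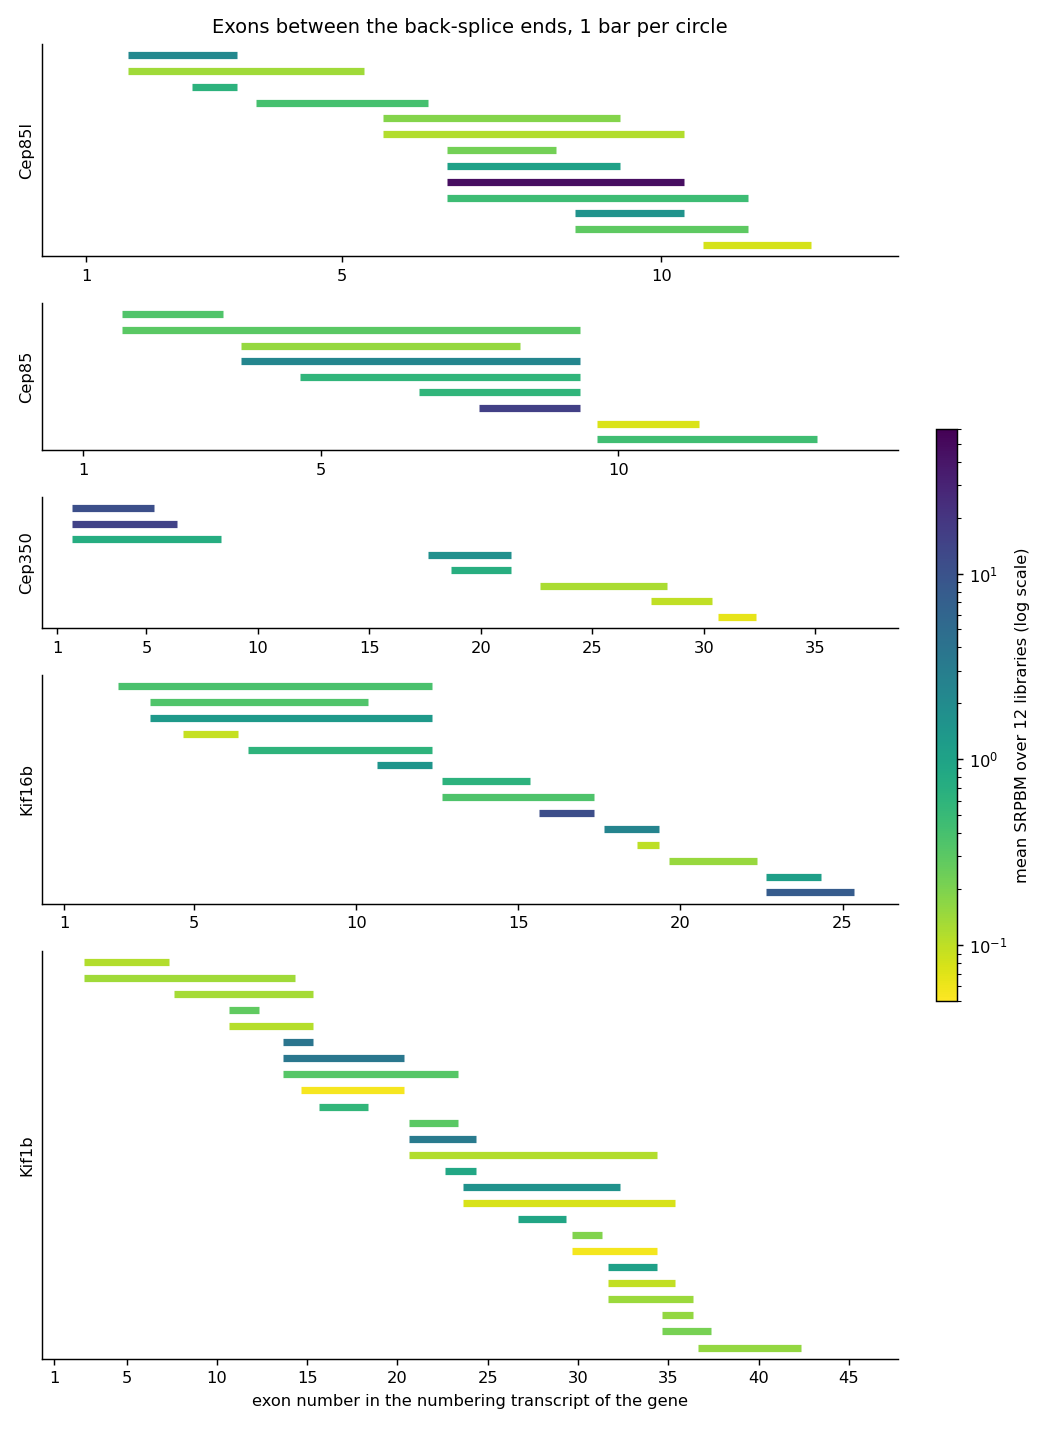
Exons between the back-splice ends (horizontal axes, exon number in 1 transcript per gene), 1 bar per circle numbered in that transcript, for Cep85l, Cep85, Cep350, Kif16b and Kif1b, coloured by mean SRPBM over the 12 libraries on a log scale. In Cep85l and Cep85, 1 dark bar dominates and several circles share its start or end, whereas the 25 circles of Kif1b are spread along the gene at low levels.

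Set beside other circles of protein-coding genes, these were of like size. A smaller share of them was numbered from exon 2, though the numbering was not alike. Their genomic span had a median of 6414.5 bases, against 6237 for the other 15447, and they held a median of 3 exons and 441.5 bases of exon, against 3 exons and 417 bases. The longest spanned 47105 bases, while 3.97% of the others spanned 50 kb or more. Exon 2 was the first exon of 24 circles (12.8%), against 25.4% of the others, and the share was 27.3% of Ift, 18.3% of Cep, 9.09% of Dync, 6.94% of Kif and 0% of Bbs circles. The intron before the circle had a median of 3728.5 bases, against 5615. Circles that span the start codon were 27 (14.4%), against 10.6% of the others. Members were read in 1 transcript per gene where it matched, and the others in the best match of each circle. Exon, intron and start codon values are thus not strictly like for like. No test was made, since circles of a host can share introns and exons.

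Most circles were seen rarely. In 87 of the 190 (45.8%) the junction was above 0 in 1 library, against 44.2% of all circular RNAs, and 10 (5.26%) were above 0 in all 12, against 6.62%. Those 10 carried 57.2% of the members' signal. By group, 59 were above 0 in PZH alone, in at most 3 libraries, and 47 in Control alone, in at most 5. The remaining 84 were above 0 in both groups. A circle above 0 in 1 library falls in 1 group alone by necessity. This split was not made over all circular RNAs, so the counts by group are not read as a difference.

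Other genes of the same pathways, listed outside the name families, also had no circle past the threshold. Of 73 centrosome genes, 42 had circles and 26 circles were tested. Of these, 0 passed an adjusted p of 0.05, with 15 positive and 11 negative and a median log2 fold change of 0.21. Over all tested circular RNAs, to which each pathway list compares, 2100 were positive and 1770 negative, with a median of 0.06. Against 7.55% of all tested circular RNAs, 1 of the 26 (3.85%) had an unadjusted p under 0.05. This was in Tacc2, a protein of the centrosome and spindle, which had its circle of exons 4-5 above 0 in 1 PZH and 5 Control libraries (−1.73, unadjusted p = 0.0206, limma adjusted p = 0.566). Mcph1, a regulator of chromosome condensation and brain size, had exons 10-12 above 0 in 6 PZH and 4 Control libraries (1.34, limma adjusted p = 0.654).

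Of 99 cilium genes, 26 had circles and 20 circles were tested, with 0 past the threshold, 8 positive and 12 negative and a median of −0.25. Iqce, a protein at the base of the cilium, had exons 14-16 above 0 in 4 PZH and 6 Control libraries (−1.54, limma adjusted p = 0.567). Arl13b, a small GTPase of the ciliary membrane, had a circle with 1 end on an exon boundary that was above 0 in 5 PZH libraries and 1 Control library (1.30, limma adjusted p = 0.614). These were the 2 with an unadjusted p under 0.05, which is 10% of the list against 7.55% of all tested circular RNAs, and their signs were opposite. The more abundant Arl13b circle of exons 2-3 shares 1 end with the Arl13b circle above. It averaged 18.1 SRPBM in PZH and 16.2 in Control (log2 fold change 0.16, limma adjusted p = 0.895). Arl13b exons 2-5 had a log2 fold change of −0.21.

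Of 82 genes of motor complexes and their microtubule partners, 37 had circles and 48 circles were tested, with 0 past the threshold, 18 positive and 30 negative and a median of −0.16. Clasp1, which stabilises microtubule ends, had a circle of exon 2 above 0 in 3 PZH and 6 Control libraries (−1.57, limma adjusted p = 0.578). It was the 1 circle with an unadjusted p under 0.05, which is 2.08% of the list against 7.55% of all tested circular RNAs. Ttll5, an enzyme that adds glutamate to tubulin, had exons 8-12 at a mean of 18.5 SRPBM in PZH and 13.7 in Control (0.44, unadjusted p = 0.0671).

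Marker circles of cell types in which these genes act are given beside the counts. Cholangiocyte marker circles, from 4 of 12 listed genes, summed to 4.50 to 12.5 SRPBM in PZH and 1.75 to 16.3 in Control. No listed circle was assigned to Krt7, Krt19, Epcam, Sox9, Cftr, Onecut1, Pkd2 or Spp1. Circles of 12 of 21 proliferation genes summed to 177 to 264 SRPBM in PZH and 155 to 188 in Control, and 8 of their 9 tested circles had a positive fold change. Stellate cell marker circles, from 5 of 16 genes, summed to 14.5 to 24.2 SRPBM in PZH and 1.78 to 13.6 in Control. These sums did not overlap, while each of the single stellate circles tested did. Macrophage marker circles (5 of 10 genes) summed to 79.6 to 128 in PZH and 60.7 to 112 in Control, and endothelial ones (8 of 10 genes) to 25.0 to 38.9 in PZH and 31.2 to 58.7 in Control. At an unadjusted p under 0.05 were 2 of 9 tested proliferation circles, 1 of 4 stellate, 2 of 8 macrophage, 2 of 9 endothelial and 7 of 35 hepatocyte circles, against 7.55% of all tested circular RNAs. Fold changes were positive in 3 of the 4 stellate, 7 of the 8 macrophage, 1 of the 9 endothelial and 21 of the 35 hepatocyte circles, against 2100 of all 3870. None of these circles passed an adjusted p of 0.05 in limma. The part of these cell types in the values of the centrosome, cilium and motor circles was not tested.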

How the data were processed

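Liver RNA of 12 mice was measured, 6 PZH and 6 Control. Trizol extraction, a TruSeq RNA kit and a HiSeq 4000 were used, per the labels' protocols. Per the submitters' processing notes, Trim Galore and STAR were used with GRCm38 (mm10). Not given in the sources used here are the circular RNA caller, versions, filters and the formula of SRPBM. The deposited signal in SRPBM is the authors' scaled value per junction, with no counts, and was used as deposited.

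Hosts and exons were assigned here from GENCODE M21. Exon numbers of members refer to 1 transcript per gene, and those of other circles to the best match of each circle. Sequences come from the GENCODE M21 transcript file. The table gives no strand, so strand was taken from the host. In each library 56.8% to 63.8% of low values lay near whole multiples of a step of which the smallest value is 2. Since whole reads could not be recovered, no count model was fitted. Read-pair equivalents are values divided by that step, and the depth is known no better than this.

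log2(SRPBM + 0.636) was fitted in limma 3.58.1 (R 4.3.3), with its variance trend, the pseudocount being the median of the libraries' smallest values, which understates changes of low circles. The 2-sided test took circular RNAs, or host sums, above 0 in 6 or more of the 12 libraries. P-values were adjusted over all tested after Benjamini and Hochberg, with a threshold of 0.05. Within-host ratios were compared with exact permutation tests written in Python. Ranks for the exact rank-sum test were taken with scipy 1.17.1. Scripts used Python 3.11.15, numpy 2.4.6, pandas 2.3.3, biopython 1.88 and matplotlib 3.10.9. The limma script was also run on simulated data with an assumed spread, which does not give its power for these circles.

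Named circles were the 8 with the highest mean, the 8 with the smallest p in each direction, those above 0 in at least 5 libraries of one group and at most 1 of the other, the leading hosts by number of circles, sum and p, and 2 circles per pathway list. Cep83, Kif3b, the other Bbs, Ift and dynein circles, Kif1b exons 24-32 and Kif16b exons 23-25 were named to cover the families, after their values were seen. Members and lists were chosen with earlier results of these data known. The labels call the samples livers of separate mice; they give no batch. Same-numbered libraries of the groups did not deviate together (r −0.0464 to 0.0163), so the numbers were not taken as pairs.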

Additional observations from a re-analysis of the deposited data

Results flagged for a closer look

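A library far from the others of its group was found in 4 of 78 groups of 6 values (5.13%), and chance gives about 1 in 20. Cep57l1 exons 3-5 reached 2.93 SRPBM in 1 PZH library while the others had at most 1.06. In Control, 1 library stood above the rest with 27.5 SRPBM for the sum of Kif1b circles, and the same library had 101 SRPBM for the sum of all Kif circles. For the sum of Kif21a circles, a different Control library stood out with 4.40 SRPBM.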

How the results depend on the processing

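No member circle or member host sum passed an adjusted p of 0.05 in any other setting. These settings were other pseudocounts, filters, scalings, tests and left-out libraries. The number of members called was 0 in each, also with each library left out (range 0 to 0). Over all circular RNAs, 30 of 16445 were called without the filter and 12 of 3813 with zeros as missing. Of those above 0 in all 12 libraries, 10 of 1089 were called. Over all host sums, 6 of 4731 were called without the filter. The replicate block called 0 of the 43 tested members, with a smallest adjusted p of 0.658. The exact rank-sum test called 0 of all 3870 tested circular RNAs. At an unadjusted p under 0.05 it had 266, of which 1 was a member. The count of members at an unadjusted limma p under 0.05, 2 in all libraries, was 4 without PZH replicate 1 and 1 without Control replicate 4 or 5. Over all tested circular RNAs it was 292 of 3870 in all libraries. In those 3 settings it was 256 of 3636, 275 of 3585 and 257 of 3547. The nearest approach of a member was Cep350 exons 2-6, at a limma adjusted p of 0.0829 when only circular RNAs above 0 in all 12 libraries were tested. Of 31 named circles and host sums, 25 kept their sign in every setting. Kif16b exons 16-17 (−0.57) had 0.27 with zeros as missing and a mean rank difference of 0.333 in the rank-sum test, and −1.31 to 0.064 with 1 library left out. Cep85l exons 9-10 (−1.07) had 0.13 with zeros as missing. The Kif16b sum (0.00) had −0.042 under median-of-ratios scaling and −0.045 under equal summed SRPBM and −0.17 to 0.21 with 1 library left out. With 1 library left out, Cep350 exons 2-5 had −0.0048 to 0.49, Cep192 exons 11-12 had −0.38 to 0.0031 and the Cep128 sum had −0.29 to 0.31. The Bbs9 junction ratio (0.35) had −0.077 when set against circles above 0 in all 12 libraries (exact permutation p = 0.853). The median fold change of the circles, −0.17, was 0.01 without the filter and 0.13 with zeros as missing. The cause of these changes was not tested, beyond the zeros and samples each setting removes. As 147 of 190 circles were above 0 in fewer than 6 libraries, they were not tested in the main fit. Whether depth or rarity kept them there was not tested. Without the filter all 190 were fitted, with 0 called and a smallest limma adjusted p of 0.555. At an unadjusted limma p under 0.05 were 3 of these 190, against 524 of all 16445. The SE of the 43 tested had a median of 0.67.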
